A study of Homo sapiens with 32 samples.

Results

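The regions described here are the stretches of RNA whose m6A peak call changed when SETD2 was put back into RPTEC cells that had lost it. Peaks of 4 libraries were merged wherever they overlapped by at least 1 bp, which gave 54876 regions on chromosomes 1 to 22 and X. A region was counted as gained on rescue when both libraries of the rescued line and neither library of its knockout parent called a peak in it, and as lost in the reverse case. By this rule 2266 regions were gained, 4.13% of all regions, and 1919 were lost, 3.50% of all regions. Together these 4185 members are the subject here, and their shares are read against the 54876 regions of the 4 lists. The 16 peak lists of the series merge into 99053 regions.

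RPTEC are renal proximal tubule epithelial cells immortalized with hTERT. The WT line is the unedited parental line, and SETD2KO-1 and SETD2KO-2 are isogenic lines in which SETD2 was inactivated with CRISPR/Cas9. SETD2KO-1R is SETD2KO-1 carrying a full-length FLAG-tagged wild-type SETD2 transgene and was derived as a single clone, so the effect of SETD2 and any property of that clone cannot be told apart. All 4 lines share the hTERT background, and the same set of 4 genotypes in 786-O, a line from a clear cell renal cell carcinoma, was used as a further check. Each genotype had 2 libraries, and nothing in the labels says that they came from separate cultures, so the spread between them may be technical.

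m6A is a methyl group that the METTL3-METTL14 complex places on adenosines of RNA, mostly in mRNA and often near stop codons and in long exons. Reader proteins of the YTH family bind the mark and alter splicing, translation and decay of the transcript. SETD2 trimethylates lysine 36 of histone H3 along transcribed genes, and this histone mark can recruit METTL14 to chromatin. SETD2 is a frequently mutated tumour suppressor of clear cell renal cell carcinoma. In MeRIP-seq, RNA fragments are pulled down with an antibody to m6A and peaks are called against the input RNA. A call can therefore change with the level of a transcript as well as with its methylation, and peak lists alone cannot tell these apart.

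A few microRNA hairpins overlapped the members. A region gained in MIR137HG, the host gene of a neuronal microRNA, at chr1:98045212-98046126 of hg38, overlapped the hairpins of MIR137 and MIR2682. A region lost in KDM5C, an X-linked histone demethylase gene, at chrX:53195439-53195806 overlapped the hairpin of MIR6895. The mature sequences are shown from RefSeq (GRCh38.p14), 5′ to 3′, because these hairpins were the 3 among the members, of 98 in all regions, and capitals mark the seed, bases 2 to 8.
hsa-miR-137-3p: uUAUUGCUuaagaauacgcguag
hsa-miR-137-5p: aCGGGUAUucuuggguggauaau
hsa-miR-2682-3p: cGCCUCUUcagcgcugucuucc
hsa-miR-2682-5p: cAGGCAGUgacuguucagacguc
hsa-miR-6895-3p: uGUCUCUCgcccuuggccuuag
hsa-miR-6895-5p: cAGGGCCAggcacagaguaag
The mature miR-137-5p and miR-6895-3p lay just outside their regions, which overlapped only another part of the hairpin. No 2 of these 6 sequences had the same seed. The MIR137HG region stood at the 75.3 and 51.1 percentile of peak score in the rescued libraries, where the percentile ranks a peak among all peaks of its own library. It was also called in both WT libraries, at 48.0 and 51.2, and in SETD2KO-2 replicate 1, at 45.3. The KDM5C region stood at 96.2 and 84.2 in the SETD2KO-1 libraries and was called in no other RPTEC library.

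The DRACH consensus of m6A holds the letters GGACT as its best known form. The first 50 transcribed bases of a protein-coding gene lay wholly inside a gained region for 97 genes and inside a lost region for 54. GGACT on the strand of the gene was found in 3 of the 97 (3.09%) and in 1 of the 54 (1.85%), against 762 of 15812 starts in the RefSeq promoter table (4.82%). Counting either strand, the shares were 10.3%, 13.0% and 9.85%. The windows around the match are shown because these 4 genes carried both a change of call and the motif at their start, with the motif in capitals and the strand of the gene.
FAM149B1, gained, chr10:73168145-73168165, plus strand: aggtcggaGGACTggagaggt
KLHDC3, gained, chr6:43014255-43014275, plus strand: ctcgttggGGACTaaggcgtc
ID3, gained, chr1:23559468-23559488, minus strand: ctgtagcgGGACTtcttttgg
EMX2, lost, chr10:117542780-117542795, plus strand: ttgtccttGGACTtag
Of these genes, ID3 encodes an inhibitor of basic helix-loop-helix factors and EMX2 a homeobox factor of urogenital development. A match of letters is a description of the window and says nothing of whether the adenosine is methylated.

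The 4 libraries held 24479 and 30501 peaks in SETD2KO-1 and 29052 and 31098 in SETD2KO-1R. The numbers overlapped between the lines, with means of 27490 ± 4258 and 30075 ± 1447 (SD, n = 2), a difference of 2585 that is given as a description. Read depth is not part of the peak lists and is unknown here. Libraries of the same line were not more alike than libraries of different lines. The covered bases shared by a pair, as a fraction of the bases covered by either, came to 0.331 within SETD2KO-1 and 0.380 within SETD2KO-1R, and to 0.315 to 0.397 between the lines. A peak called in a single library was common as well. Of the 54876 regions, 14058 were called in 1 rescued library alone and 12145 in 1 parent library alone, while 9794 (17.8%) were called in all 4.

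The members were weaker and narrower than the shared regions. Gained regions had a median width of 425 bp and lost regions of 463 bp, against 736 bp for regions called in all 4 libraries. Their median score percentile was 37.0 and 42.8 in the rescued libraries for the gained regions and 40.3 and 35.4 in the parent libraries for the lost regions, while the shared regions stood between 66.7 and 69.9. Just outside the rule lay 5067 regions called in both rescued libraries and 1 parent library, at median percentiles of 53.0 and 58.7, and 2792 called in both parent libraries and 1 rescued library, at 49.2 and 46.3. These values describe the rule itself and carry no test.

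The order of the totals changed with the lists used. With each library reduced to the number of peaks of the shortest list, 24479, the counts were 1679 gained and 1824 lost, and with the upper 50% of each list by score they were 1198 and 853. The cause was not tested.

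Gained and lost regions were then looked up in the libraries that played no part in the rule. In RPTEC WT, 38.9% and 27.3% of the gained regions were called in replicates 1 and 2, against 28.9% and 21.5% of the lost regions. In RPTEC SETD2KO-2 the order turned, with 31.0% and 19.5% of the gained and 43.1% and 29.2% of the lost regions called. Over all 54876 regions the shares called were 40.3% and 31.3% in WT and 39.4% and 26.9% in SETD2KO-2. WT thus called gained regions slightly less often, and lost regions clearly less often, than regions in general, while SETD2KO-2 called lost regions more often and gained regions less often. The difference between the shares, gained minus lost, was thus 9.96 and 5.80 percentage points in the WT libraries and -12.1 and -9.68 in the SETD2KO-2 libraries. The groups did not overlap, and their means of 7.88 ± 2.94 and -10.9 ± 1.69 (SD, n = 2) lay 18.8 points apart (exact permutation test, two-sided p = 0.333, the smallest that this design allows). When SETD2KO-1R replicate 2 was left out of the rule, the difference was 10.7 points.

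The same direction was seen in part in 786-O. The difference was 12.1 and 7.96 points in WT, 6.0 and 4.17 in SETD2KO-1R, -1.98 and -3.30 in SETD2KO-1, and 5.83 and -2.50 in SETD2KO-2. The SETD2-expressing libraries averaged 7.55 ± 3.38 and the SETD2 knockout libraries -0.490 ± 4.25 (SD, n = 4), a difference of 8.04 points that did not pass the threshold (exact permutation test, two-sided p = 0.0571). Single libraries decided this value. It was 3.39 points when RPTEC SETD2KO-1 replicate 2 was left out of the rule (exact permutation p = 0.543). It passed without RPTEC SETD2KO-1R replicate 2, at 6.05 points, and without 786-O SETD2KO-2 replicate 1, at 10.1 points (exact permutation p = 0.0286 in both). SETD2KO-2 replicate 1 overlapped the expressing group and was the longest list of the series, with 39501 peaks. These tests took libraries as units, although SETD2 status differs only between lines and each line has 2 libraries. Their p can therefore be too small for a difference between lines.

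**Figure D1:**
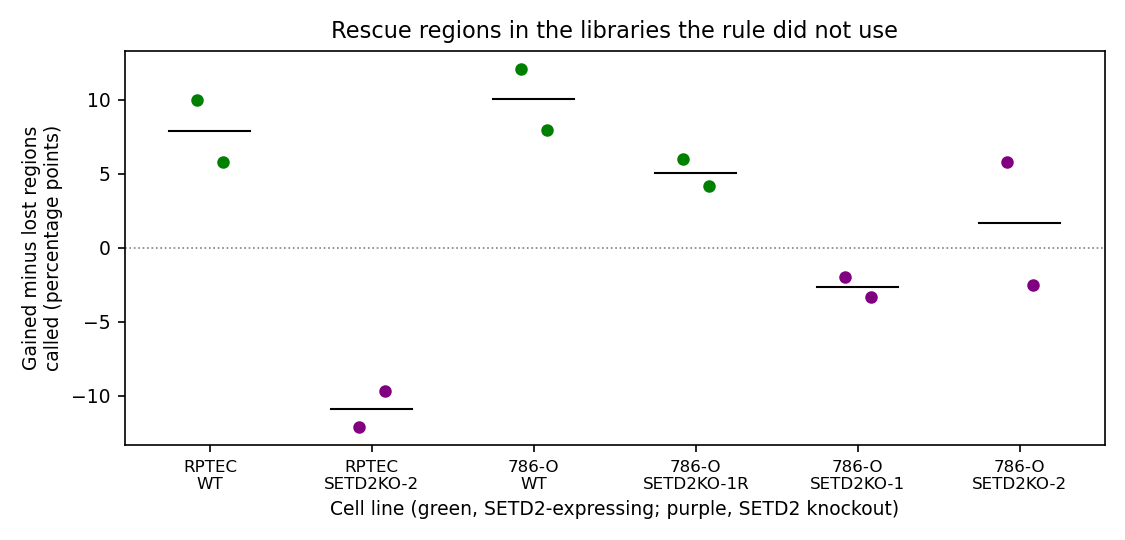
Share of gained regions called minus share of lost regions called (percentage points, y axis) in each library of the 6 lines that the rule did not use; points are libraries, horizontal lines are means of 2, and the dotted line is 0. RPTEC WT libraries lie at 9.96 and 5.80 and RPTEC SETD2KO-2 libraries at -12.1 and -9.68, while in 786-O the SETD2KO-2 replicate 1 library, at 5.83, lies among the SETD2-expressing libraries.

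Region by region the carry-over was limited. Of the gained regions, 151 (6.66%, 95% Wilson interval 5.71 to 7.77) were called in both WT and neither SETD2KO-2 library, and 52 (2.29%) showed the reverse. Of the lost regions, 178 (9.28%, 8.06 to 10.7) were called in both SETD2KO-2 and neither WT library, and 54 (2.81%) showed the reverse. Over all 54876 regions those patterns made up 3.08% and 2.23%. The intervals cover counting error only, since regions of a gene are not independent. No WT or SETD2KO-2 library called 788 of the gained regions (34.8%) and 607 of the lost regions (31.6%), against 38.4% of all regions.

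The regions whose call was the same in every SETD2-expressing and opposite in every knockout RPTEC library are the members that the WT and SETD2KO-2 lines repeat. Among the 151 gained ones, the strongest by mean percentile in the rescued libraries lay in LAMC1, which encodes the laminin gamma 1 chain, at chr1:183103098-183103368, with percentiles of 95.8 and 96.5 in SETD2KO-1R and 93.6 and 96.0 in WT. ITGA6, an integrin gene whose product binds laminin, carried one at 87.7 and 92.9 in SETD2KO-1R and 92.7 and 88.0 in WT. INHBA, the gene of the activin A subunit, carried one at 85.5 and 84.4 in SETD2KO-1R and 74.9 and 88.0 in WT. By the choice of these regions, all 3 were uncalled in the 4 knockout libraries. These 3 genes were picked from the top of the ranking after their values were seen.

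Among the 178 lost ones, the strongest lay in BCLAF1, a gene of an RNA-binding factor linked to splicing and apoptosis, with percentiles of 99.6 and 98.8 in SETD2KO-1 and 98.1 and 99.2 in SETD2KO-2. SATB1, a chromatin organizer gene, carried one at 93.9 and 86.3 in SETD2KO-1 and 91.4 and 58.9 in SETD2KO-2. NUPR1, a stress-induced transcription regulator gene, carried one at 83.2 and 96.1 in SETD2KO-1 and 86.2 and 88.7 in SETD2KO-2. By the same choice, none of the 3 was called in a WT or SETD2KO-1R library. These genes were likewise picked after their values were seen.

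A comparison with the 786-O rescue, whose libraries are separate from these, was made by position. That contrast held 1578 gained and 3884 lost regions. Of the RPTEC gained regions, 57 (2.52%) overlapped a region gained in 786-O and 115 (5.08%) a region lost there. Of the RPTEC lost regions, 149 (7.76%) overlapped a region lost in 786-O and 39 (2.03%) a region gained there. Seen from 786-O, 56 of its gained regions (3.55%) and 149 of its lost regions (3.84%) matched the same direction in RPTEC. For a background, the 54876 regions were scored by their calls in 786-O: 1.77% were called in both rescued and neither parent library and 4.55% in the reverse pattern. By that scoring the gained regions had 2.65% and 5.34% and the lost regions 2.29% and 7.76%. All of these shares were above the background. The 95% Wilson interval lay above it for the gained regions in the 786-O gained pattern (2.06 to 3.39). The same held for the lost regions in the 786-O lost pattern (6.65 to 9.05). Intervals of the crossed pairs (4.49 to 6.34 and 1.71 to 3.06) included the background by a narrow margin. They cover counting error only, since regions of a gene are not independent, and no test over libraries was made of this overlap.

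Gained and lost regions were spread unequally over some chromosomes. Chromosome X held 1777 regions, of which 139 were lost and 21 gained, or 7.82% and 1.18% against 3.50% and 4.13% over all chromosomes. X thus carried 7.24% of the lost regions (95% Wilson interval 6.17 to 8.49) and 0.927% of the gained ones. Chromosome 19 leaned the other way, with 178 gained and 65 lost of 3429 regions, or 5.19% and 1.90%. Chromosome 20 had 65 gained and 28 lost, and chromosome 8 had 64 gained and 102 lost. In all, 7 of 23 chromosomes held more lost than gained regions.

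**Figure D2:**
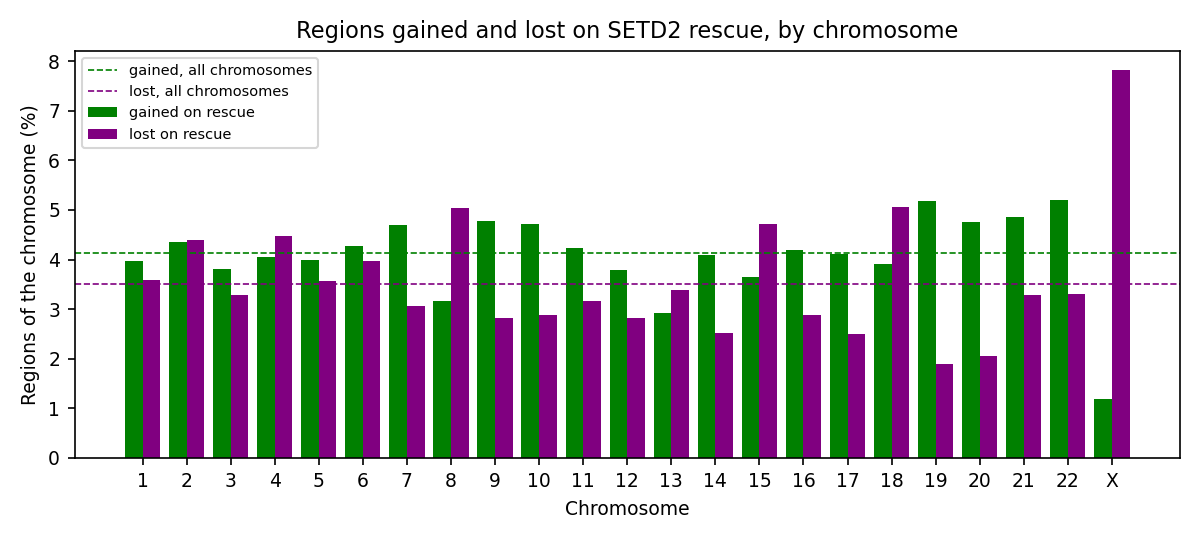
Percent of the regions of each chromosome (x axis) that were gained (green) or lost (purple) on rescue in RPTEC, with the share over all chromosomes as dashed lines at 4.13% and 3.50%. Chromosome X stands out with 7.82% of its regions lost and 1.18% gained, and chromosome 19 shows 5.19% gained and 1.90% lost.

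The share of all peaks on X showed the same split in the lines outside the rule. In SETD2KO-1, 4.19% and 3.82% of peaks lay on X, and in SETD2KO-1R 2.42% and 2.43%. RPTEC WT had 2.64% and 2.37%, and RPTEC SETD2KO-2 had 3.57% and 3.79%. The WT and SETD2KO-2 libraries did not overlap, with means of 2.50 ± 0.189% and 3.68 ± 0.156% (SD, n = 2; exact permutation test, two-sided p = 0.333, the smallest possible). WT and SETD2KO-2 shares failed to overlap for 12 of the 23 chromosomes, so a lack of overlap by itself was common.

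In 786-O the difference on X had the same direction and was small. The SETD2-expressing libraries had 2.87 ± 0.0773% of their peaks on X and the knockout libraries 3.10 ± 0.112% (SD, n = 4), without overlap. The exact permutation p was 0.0286, the smallest that 4 against 4 allows, and 8 of the 23 chromosomes reached it, which gave an adjusted p of 0.0821 over the 23 chromosomes. With the replicate number as a block the permutation p for X was 0.0556. Libraries and not lines were the units here too, so each p can be too small for a difference between lines. Chromosome 19 did not pass in 786-O, with 7.92 ± 0.729% against 7.02 ± 0.296% (exact permutation p = 0.0857, two-sided).

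**Figure D3:**
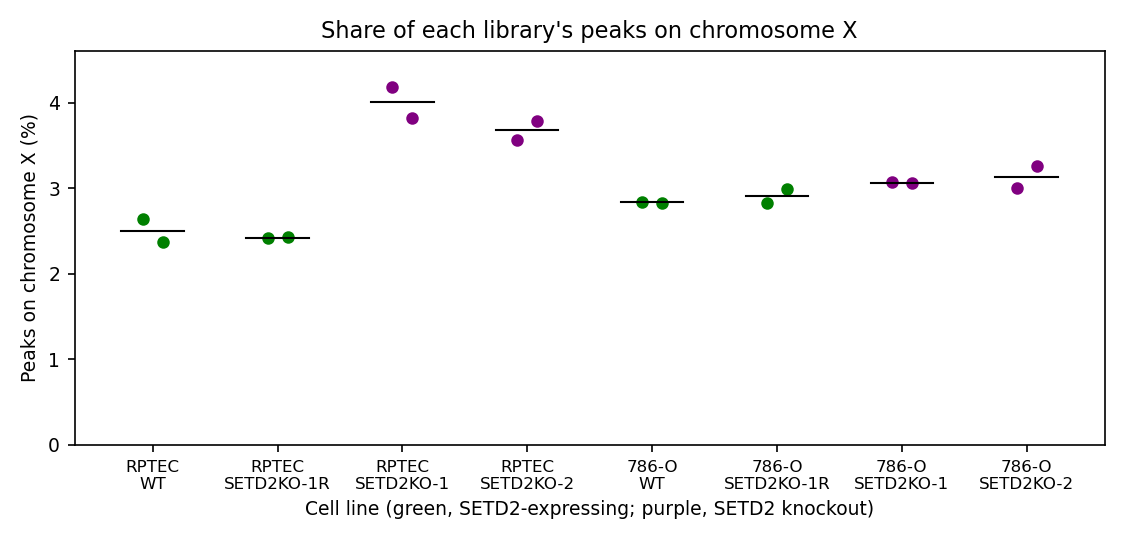
Percent of each library's peaks on chromosome X (y axis, from 0) in the 8 lines; points are libraries and lines are means of 2. The 4 knockout RPTEC libraries lie between 3.57% and 4.19% and the 4 SETD2-expressing RPTEC libraries between 2.37% and 2.64%, while the 786-O libraries lie closer together.

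Calls of the lost X regions differed between WT and SETD2KO-2. Of the 139, 22 (15.8%) and 20 (14.4%) were called in the WT libraries and 71 (51.1%) and 51 (36.7%) in the SETD2KO-2 libraries, without overlap (exact permutation p = 0.333, the smallest possible). Lost regions of the other chromosomes were called at 29.9% and 22% in WT and 42.5% and 28.7% in SETD2KO-2, and whether X differed from them was not tested. In 786-O, the 4 expressing libraries called 29.3 ± 5.91% and the 4 knockout libraries 36.3 ± 5.17% (exact permutation p = 0.143, two-sided). The lost regions ran along the whole chromosome, and 15 of 16 bins of 10 Mb held more lost than gained regions. Of the 139, 100 lay in a protein-coding gene. Of the 390 protein-coding genes of X with a region, 84 carried a lost one (21.5%) and 17 a gained one (4.36%), against 10.5% and 14.6% over all chromosomes.

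LONRF3, which encodes a ring finger protein, had 3 lost regions, with 5 and 5 peaks in SETD2KO-1, 0 and 3 in SETD2KO-1R, 1 and 1 in WT and 3 and 4 in SETD2KO-2. MID1, a microtubule-associated ubiquitin ligase gene, had 2 lost regions, with 8 and 6 peaks in SETD2KO-1, 4 and 2 in SETD2KO-1R, 3 and 2 in WT and 8 and 5 in SETD2KO-2. HDAC8, a histone deacetylase gene, carried 3 gained regions and none lost, but held 7 and 6 peaks in SETD2KO-1 and 5 and 7 in SETD2KO-1R. These 3 genes were chosen after their values were seen.

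Among protein-coding genes, 1669 of the 11435 with a region carried a gained one (14.6%) and 1203 a lost one (10.5%). A further count found 178 genes with both, 10.7% of the former and 14.8% of the latter. Of the genes with a gained region, 1171 of the 1669 (70.2%) also had a peak in both parent libraries. Of those with a lost region, 822 of the 1203 (68.3%) had a peak in both rescued libraries. Such peaks were common in general, since 6848 of the 11476 genes with a peak in any of the 4 libraries had one in all 4. A whole-gene switch was rarer, with 381 genes that had peaks in both rescued and no parent library and 318 with the reverse. A single member was the rule, with 1389 genes at 1 gained region and 1015 at 1 lost region. The genes below were ranked by their number of members, so their counts in the 4 libraries are a description, and long genes can hold more of them.

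RIMS1, a gene of the presynaptic active zone, carried the most gained regions, 11 of its 21. It held 20 and 13 peaks in SETD2KO-1R and none in SETD2KO-1. WT held 7 and 3 and SETD2KO-2 held 2 and 1, so WT lay between the rescued line and the knockouts. LIMCH1, a gene that activates non-muscle myosin, carried 10 of 28, with 17 and 20 peaks in SETD2KO-1R and 0 and 1 in SETD2KO-1. Its WT libraries held 6 and 3 peaks and its SETD2KO-2 libraries 3 and 0.

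CDH4, the retinal cadherin gene, carried 7 gained regions of 69, with 45 and 47 peaks in SETD2KO-1R and 20 and 31 in SETD2KO-1. In WT it held 28 and 26 and in SETD2KO-2 25 and 9, so the values of both other lines lay below those of SETD2KO-1R. EPPK1, the epiplakin gene of the keratin cytoskeleton, carried 6, with 8 and 9 peaks in SETD2KO-1R, none in SETD2KO-1 or WT, and 1 and 0 in SETD2KO-2. Its peaks were thus seen in RPTEC almost only in the rescued clone. WNT7B, a Wnt ligand gene of the developing kidney, carried 6, with 17 and 14 peaks in SETD2KO-1R, 3 and 8 in SETD2KO-1, 17 and 11 in WT and 12 and 1 in SETD2KO-2.

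NRXN3, a neurexin gene, carried 6 gained regions and held 7 and 9 peaks in SETD2KO-1R, 1 in each SETD2KO-1 and WT library, and 2 and 3 in SETD2KO-2. GFRA1, the GDNF co-receptor gene of ureteric bud growth, carried 5 gained and 1 lost, with 13 and 13 peaks in SETD2KO-1R, 2 and 7 in SETD2KO-1, 12 and 8 in WT and 11 and 6 in SETD2KO-2. COL18A1, a basement membrane collagen gene, carried 5, with 27 and 25 peaks against 6 and 14, and with 16 and 8 in WT and 19 and 5 in SETD2KO-2. AHNAK2, a large scaffold protein gene, carried 5, with 18 and 14 peaks against 6 and 7, and with 6 and 3 in WT and 3 and 2 in SETD2KO-2. CDK14, a cyclin-dependent kinase gene that acts in Wnt signalling, carried 5, with 13 and 14 peaks against 5 and 5, and with 1 in each WT library and 4 and 5 in SETD2KO-2. In GFRA1, COL18A1 and AHNAK2 the WT and SETD2KO-2 values overlapped, and in NRXN3 and CDK14 those of SETD2KO-2 were the higher.

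On the lost side the largest cluster was the protocadherin gamma locus, whose genes of neuronal cell adhesion share their last exons. The bodies of PCDHGA1, PCDHGA2, PCDHGA3, PCDHGB1 and PCDHGA4 are nested, so their 10, 10, 9, 8 and 7 lost regions are the same regions counted repeatedly. Over the body of PCDHGA1, at chr5:141330514-141512975, SETD2KO-1 held 37 and 33 peaks and SETD2KO-1R 12 and 14. SETD2KO-2 held 21 and 30 and WT 3 and 4, so the knockout libraries lay above the expressing ones without overlap, and the rescued line lay above WT.

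CSMD2, a gene of a large transmembrane protein with CUB and sushi domains, carried 9 lost regions, with 12 and 24 peaks in SETD2KO-1, none in SETD2KO-1R or WT, and 2 and 1 in SETD2KO-2. SORCS2, a sortilin-family receptor gene, carried 6, with 13 and 10 peaks in SETD2KO-1, 14 and 5 in SETD2KO-2, and none in SETD2KO-1R or WT. ZNF469, a zinc finger gene tied to corneal collagen, carried 6, with 7 and 10 peaks in SETD2KO-1, 8 and 9 in SETD2KO-2, 0 and 1 in SETD2KO-1R and none in WT. For SORCS2 and ZNF469 the knockouts and the expressing lines separated completely.

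CGNL1, the paracingulin gene of epithelial junctions, carried 6 lost regions, with 11 and 15 peaks in SETD2KO-1 and 1 and 1 in SETD2KO-1R, while WT held 4 and 5 and SETD2KO-2 9 and 2. SPON1, a spondin matrix protein gene, carried 6, with 13 and 16 peaks in SETD2KO-1 and 5 and 4 in SETD2KO-1R. There the other lines ran the opposite way, with 18 and 12 peaks in WT and 3 and 2 in SETD2KO-2.

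**Figure D4:**
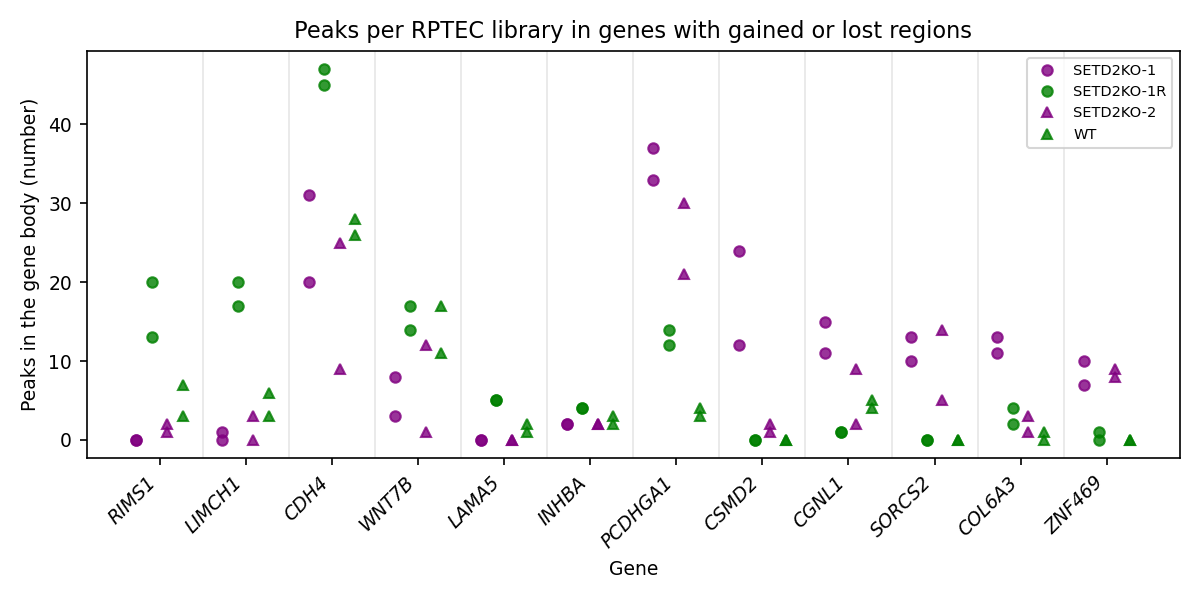
Number of peaks in the gene body (y axis) in each RPTEC library for 12 of the genes named in the text; circles are the rescued line and its parent, triangles WT and SETD2KO-2, green is SETD2-expressing and purple knockout. RIMS1 holds 20 and 13 peaks in SETD2KO-1R and none in SETD2KO-1, and SORCS2 holds peaks in the knockout libraries alone.

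The strongest single members were short and were scattered over the other lines. Of the 5 gained regions with the highest mean percentile, 4 are described; they lay in MINK1, CHD3, GFRA1 and in the overlap of AVEN and CHRM5, were 284 to 339 bp wide, and were all also called in SETD2KO-2 replicate 1 and in at least 1 WT library. The 5 lost regions lay in BRD3, SRRM1, RALB, OPTN and IGBP1 and were 285 to 368 bp wide, and 4 of them were also called in WT replicate 1, while those in BRD3, RALB and IGBP1 were called in SETD2KO-2 replicate 1.

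SETD2 itself carried 3 gained regions and none lost, with 11 and 10 peaks in SETD2KO-1R, 6 and 4 in SETD2KO-1, 7 and 10 in WT and 4 and 5 in SETD2KO-2. The transgene holds the SETD2 coding sequence, so peaks on its RNA and on that of the endogenous gene cannot be told apart. METTL3, the catalytic m6A writer, had 1 region, called in SETD2KO-1R replicate 1 alone. MAL, a gene of a membrane raft protein of the tubule, carried 1 gained region, with 5 and 3 peaks in SETD2KO-1R, 2 and 1 in SETD2KO-1, 6 and 5 in WT and none in SETD2KO-2. POU2F2, an octamer-binding factor gene, carried 2 lost regions, with 5 and 7 peaks in SETD2KO-1, 5 and 2 in SETD2KO-2, 1 and 1 in WT and 1 and 0 in SETD2KO-1R. MAL and POU2F2 are genes the study itself chose from these cells, so their direction is not independent evidence.

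Several signalling lists held more gained than lost regions. The Wnt list carried 15 gained and 2 lost of 169 regions (8.88% and 1.18%), with 9 of its 30 genes that had a region on the gained side and LEF1 alone on the lost side. WNT7B alone gave 6 of the 15. LRP5, a Wnt co-receptor gene, carried 2 gained regions, and its libraries held 10 and 3 peaks in SETD2KO-1R, 1 and 2 in SETD2KO-1, 7 and 4 in WT and 5 and 2 in SETD2KO-2. The TGF-beta and SMAD list carried 13 gained and 1 lost of 164 regions (7.93% and 0.610%), with 10 of 25 genes gained. INHBA led it with 3 gained regions, with 4 and 4 peaks in SETD2KO-1R and 2 in every SETD2KO-1 and SETD2KO-2 library, while WT held 3 and 2. The receptor tyrosine kinase list carried 12 gained and 3 lost of 184 regions, among them 4 gained in IGF1R, the insulin-like growth factor receptor gene, and 2 in AXL. The Hippo and YAP list carried 11 gained and 4 lost of 180, with 3 gained in TEAD2. The Notch list, at 4 gained and 3 lost of 111 (3.6% and 2.70%), did not stand above the background. Over all regions the shares were 4.13% and 3.50%, and no test of these lists was made. Of all protein-coding genes with a region, 14.6% carried a gained and 10.5% a lost one.

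Collagens carried 10 gained and 8 lost of 232 regions (4.31% and 3.45%), close to the shares over all regions. COL6A3, a collagen VI chain gene, carried 5 lost regions, with 11 and 13 peaks in SETD2KO-1 and 4 and 2 in SETD2KO-1R, and only 0 and 1 in WT and 3 and 1 in SETD2KO-2. COL5A1, a fibrillar collagen gene, held 15 and 20 peaks in SETD2KO-1R and 11 and 13 in SETD2KO-1, and none in WT or SETD2KO-2, so its peaks were found in the clone SETD2KO-1 and its derivative. Integrins and laminins carried 9 gained and 4 lost of 141 (6.38% and 2.84%, against 4.13% and 3.50% over all regions). LAMA5, the laminin alpha 5 gene of the tubular basement membrane, carried 4 gained regions, with 5 and 5 peaks in SETD2KO-1R, none in any RPTEC knockout library and 2 and 1 in WT. LAMA4, another laminin chain gene, carried 2 lost regions, with 2 and 2 peaks in SETD2KO-1, none in SETD2KO-1R, 1 and 0 in WT and 3 and 1 in SETD2KO-2.

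Fewer lists held more lost than gained regions, where the shares over all regions were 3.50% and 4.13%. The epithelial-mesenchymal transition list carried 2 gained and 9 lost of 187 regions (1.07% and 4.81%), with 2 lost regions each in ZEB1, a repressor of E-cadherin, and FBN1, the fibrillin 1 gene. ZEB1 held 19 and 19 peaks in SETD2KO-1 and 18 and 19 in SETD2KO-1R, so the number of its peaks in the 2 lines overlapped. The hypoxia list carried 1 gained and 7 lost of 98 (1.02% and 7.14%), of which 3 were in PFKFB4, a regulator of glycolysis, with 5 and 5 peaks in SETD2KO-1 and 1 and 1 in SETD2KO-1R, but 2 and 1 in both WT and SETD2KO-2. Cytosolic ribosomal protein genes carried no member in 50 regions, and immediate early genes carried 1 lost in 55 (1.82%).

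Lists closer to the question of the study gave mixed counts. H3K36 methyltransferases and demethylases carried 10 gained and 3 lost of 156 regions (6.41% and 1.92%, against 4.13% and 3.50% over all regions), with SETD2 itself giving 3 of the 10 and KDM4B, a lysine demethylase gene, giving 2. The clear cell carcinoma and mTOR list carried 12 gained and 2 lost of 160 (7.5% and 1.25%), and shares SETD2 with the former. The m6A writers carried no gained and 1 lost of 40 (2.50%), in VIRMA, a subunit of the writer complex, and readers and erasers carried 2 gained and 3 lost of 60 (3.33% and 5.0%). Readers of H3K36 methylation carried 2 and 3 of 70 (2.86% and 4.29%), and Polycomb genes 3 and 5 of 78 (3.85% and 6.41%).

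The other lists are read against the same 4.13% gained and 3.50% lost. NF-kB and inflammatory genes carried 6 gained and 2 lost of 101 regions (5.94% and 1.98%), and lipid and sterol genes 7 and 2 of 138 (5.07% and 1.45%). DNA repair genes carried 6 and 5 of 148 (4.05% and 3.38%), splicing factors of the nuclear speckle 5 and 4 of 107 (4.67% and 3.74%), and HOX genes 4 and 3 of 120 (3.33% and 2.50%). TCA cycle genes carried 2 and 3 of 60 (3.33% and 5.0%), fatty acid oxidation genes 1 and 2 of 49 (2.04% and 4.08%), oxidative phosphorylation genes 2 and 1 of 46 (4.35% and 2.17%), and cell cycle genes 1 and 2 of 97 (1.03% and 2.06%).

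Marker genes of the tubule held peaks only in part, and a missing peak does not show that a gene is not expressed. Of 21 proximal tubule and renal epithelial markers, 11 had a region, among them PAX8, while CUBN, LRP2, AQP1 and SLC34A1, which define the mature proximal tubule, had no peak in the 4 libraries. The list summed to 52 and 90 peaks in SETD2KO-1 and 81 and 81 in SETD2KO-1R, with 4 gained and 4 lost regions. Of 10 markers of other cell types, 4 had a region, with sums of 4 and 6 in SETD2KO-1 and 4 and 4 in SETD2KO-1R, and PECAM1, VWF and PTPRC had none. CDH5, an endothelial cadherin gene, carried the single member among the 8 regions of this list. That region was called in both WT and both rescued libraries and in no RPTEC knockout library. PDGFRB, also on the list, went the other way by number of peaks, with 1 and 1 in SETD2KO-1 and 2 and 1 in SETD2KO-2. It held none in WT or SETD2KO-1R.

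Lost regions lay in protein-coding genes less often than gained ones. Of the gained regions 87.5% (95% Wilson interval 86.1 to 88.8) had their midpoint in a protein-coding gene, against 73.8% (71.8 to 75.8) of the lost ones. The share was 91.0% of those called in all 4 and 86.0% of all regions. No annotated gene covered 6.09% of the gained and 15.3% of the lost regions, against 7.25% of all regions. The lost set thus lay away from the share over all regions and the gained set near it. That describes regions the rule chose, the intervals cover counting error only, and no test was made. Over whole libraries, the share of peaks in protein-coding genes was 84.0% and 87.6% in SETD2KO-1 and 89.3% and 89.0% in SETD2KO-1R. The share in no gene was 8.19% and 6.17% in SETD2KO-1 and 4.94% and 5.32% in SETD2KO-1R. These are the libraries that the rule used, so their values are a description, with no test. WT had 4.80% and 5.13% and SETD2KO-2 7.13% and 8.19%.

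Within genes of known strand, gained regions lay nearer the start than lost ones. With the body of each gene cut into 10 equal parts, the first part held 16.1% of 1584 gained and 8.98% of 1102 lost regions, against 13.3% of all regions. The last part held 16.9% of the gained, 21.1% of the lost, 17.8% of all and 28.9% of the regions called in all 4. Genes with lost regions were longer, with a median of 92.2 kb over regions against 68.0 kb for the gained and 54.8 kb for those called in all 4, and the part of gene length in the difference of position was not tested.

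**Figure D5:**
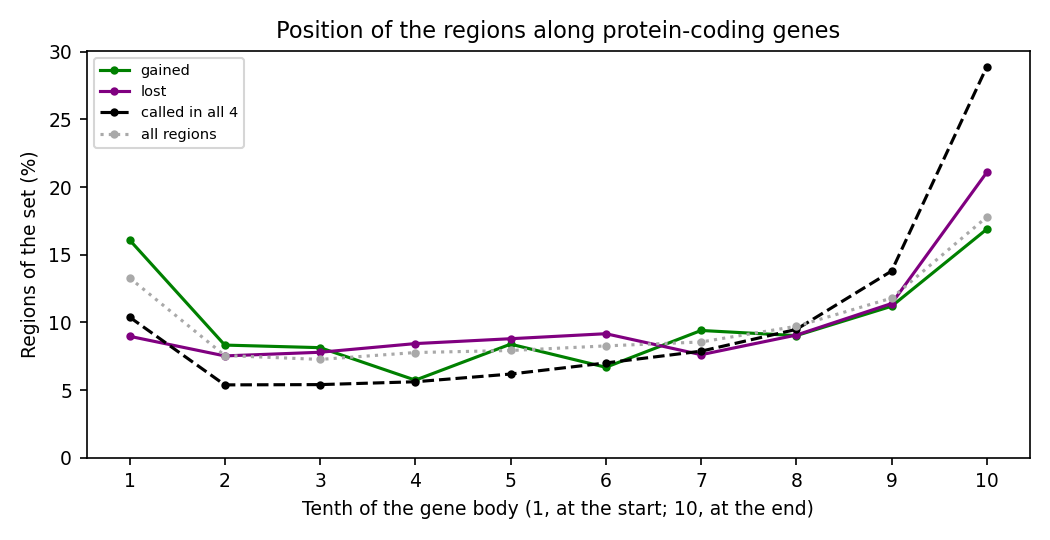
Percent of the regions of each set (y axis) by position in 10 equal parts of the gene body from start to end (x axis), for regions in a single protein-coding gene of known strand. Gained regions have 16.1% in the first part and lost regions 8.98%, and both lie below the 28.9% of regions called in all 4 libraries in the last part.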

How the data were processed

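MeRIP-seq peak lists of 16 immunoprecipitated libraries were used; input libraries and gene expression were not analysed here. Per the study's methods and processing notes, the authors aligned reads with STAR to hg38 and called peaks against input with MACS2. The deposited lists hold the peak's position, a score and, in a further column of other values, the offset of its summit. The score was used as deposited and ranked within each library. Peaks on other contigs (450 of 115580 in the 4 lists) were left out. Peaks were merged and called with Python 3.11.15, NumPy 2.4.6 and pandas 2.3.3, and regions were assigned by midpoint to RefSeq gene bodies (GRCh38.p14), 79.2% of protein-coding genes having a strand. Exons and UTRs were not used here. Exact permutation tests ran over libraries, and Wilson intervals (95%) came from SciPy 1.17.1. The steps were tested on simulated data with planted regions. The text names, per direction, the 10 genes with most members, the 5 regions with the highest scores, listed genes with at least 2 members in 1 direction, summarised where many, and SETD2, METTL3, MAL and POU2F2. Some genes that this rule names are not reported here. Members and lists were chosen with earlier results of these data known.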

Additional observations from a re-analysis of the deposited data

Results flagged for a closer look

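In the 786-O SETD2KO group of 4 libraries, SETD2KO-2 replicate 1 stood apart from the others in the gained minus lost share, at 5.83 percentage points against -3.30 to -1.98, with a gap of 0.856 of the group's range, above the 95% critical value of Dixon's test. In the 786-O SETD2-expressing group, SETD2KO-1R replicate 2 stood apart in the share of peaks on chromosome X, at 2.99% with a gap of 0.910 of the range. Chance flags about 1 in 20 such groups.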

How the results depend on the processing

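With the upper 50% of each list by score, 1198 regions were gained and 853 lost, in 1003 and 651 protein-coding genes, and chromosomes X and 19 held 8.91% and 5.16% of the lost regions. Leaving out 1 library of the 4 in turn, where a side of 1 library needs 1 call, gave 3707 to 10772 gained and 3210 to 8803 lost regions, in 2625 to 5248 and 2048 to 4409 genes. X then held 5.65% to 6.39% of the lost and 1.21% to 1.42% of the gained regions, and chromosome 19 held 3.56% to 4.77% and 6.80% to 9.16%. Without a library of any group used, the WT minus SETD2KO-2 difference in RPTEC ran from 10.7 to 20.8 points and that in 786-O from 3.39 to 10.1 (exact permutation p from 0.0286 to 0.543). The 786-O p reached 0.0286 without SETD2KO-1R replicate 2 of RPTEC (6.05 points) and without SETD2KO-2 replicate 1 of 786-O (10.1 points). The log2 number of peaks, rescue minus parent, was 0.14 and ran from -0.021 without SETD2KO-1 replicate 1 to 0.30. With 1 library left out, the protein-coding share, rescue minus parent, ran from 1.53 to 5.09 points. The share in no gene ran from -3.06 to -1.04 points. Leaving out chromosome X, an alternative chosen after seeing the data, gave 17.4 points in RPTEC and 8.20 in 786-O.

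The replicate numbers are not stated to pair libraries. With the replicate block, p was 0.500 for the RPTEC difference of 18.8 points, 0.0556 for the 786-O difference of 8.04 points and 0.0556 in place of 0.0286 for the share of 786-O peaks on chromosome X. These are the smallest p that the block allows for 2 against 2 and 4 against 4, so no p can pass with it. The protein-coding share of 3.31 points, the share in no gene of -2.05 points and the log2 peak number of 0.14, rescue minus parent, cannot move under a balanced block. Deviations of same-numbered libraries over calls had r = -0.033. Tests of 2 against 2 libraries cannot pass the threshold under any setting, so their p says nothing of stability.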
